A study of Mus musculus with 31 samples.

Results

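The genes described here are 10 members of the interleukin 1 family and the inflammasome: Il1a, Il1b, Il1rn, Il1r2, Il18, Il18bp, Nlrp3, Casp1, Casp4 and Gsdmd. They were chosen by name, with earlier results of these data known, and Ensembl gene identifiers were matched to symbols. All 10 are present among the 35275 identifiers counted in experiment 1 and the 54532 counted in experiment 2. RNA-seq was performed on 31 libraries of macrophages differentiated out of marrow from C57BL/6J males aged 6 to 12 weeks, in medium conditioned by L-929 cells, which supply the growth factor that drives macrophage differentiation. Experiment 1 held 7 groups of 3 libraries: vehicle, LPS with no other agent, and LPS after iBRD9, dBRD9 or Dex, or after Dex together with iBRD9 or with dBRD9. Experiment 2 held 5 groups of 2 libraries: vehicle, IFNγ + LPS with no other agent, and IFNγ + LPS with Dex, with dBRD9 or with both. Groups are named below by their agents joined with plus signs. Dexamethasone (Dex), a synthetic glucocorticoid, was given at 1 µM. iBRD9 is an inhibitor of the bromodomain of BRD9, which belongs to the non-canonical BAF complex that remodels chromatin, and dBRD9 is a compound that causes BRD9 to be degraded. iBRD9 was given at 3 or 10 µM, without a statement of which library received which dose, and dBRD9 at 250 nM. Cells were held with these compounds overnight, and LPS, the bacterial lipopolysaccharide sensed by TLR4, was then added at 100 ng/ml for 3 hours. The sources used here do not give the dose or timing of IFNγ. Both experiments had no group with a compound and no LPS, so every compound effect below was measured in stimulated cells. The labels do not say whether the libraries of a group came from separate animals or cultures, so the p-values measure the spread between these libraries, which may be technical.

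Interleukin 1 alpha and interleukin 1 beta are ligands of the same receptor and promote fever and the recruitment of immune cells. Il1rn encodes a receptor antagonist that binds this receptor without triggering it, and Il1r2 encodes a decoy receptor that captures the ligands. Interleukin 18 is a related cytokine that promotes the production of interferon gamma and is neutralised by interleukin 18 binding protein. Interleukin 1 beta and interleukin 18 are made as inactive precursors: NLRP3, a cytosolic sensor, assembles an inflammasome on which caspase 1 is activated, and caspase 1 cleaves both precursors. Caspase 4 (caspase 11 in the older mouse nomenclature) binds intracellular LPS directly. Caspases 1 and 4 both cleave gasdermin D, whose fragments form pores in the cell membrane. LPS is known to prime macrophages by raising transcripts of the precursors and of NLRP3. Transcript levels, which are what was measured here, do not report on cleavage or release.

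In the mm10 genome, Il1a (ENSMUSG00000027399) lies at chr2:129299610-129309972 and Il1b (ENSMUSG00000027398) at chr2:129364570-129371139, both on the minus strand. Il1rn (ENSMUSG00000026981) lies at chr2:24336853-24351494 on the plus strand, and Il1r2 (ENSMUSG00000026073) at chr1:40074079-40125231. Casp1 (ENSMUSG00000025888, chr9:5298517-5307265) and Casp4 (ENSMUSG00000033538, chr9:5308828-5336783) are neighbours on the plus strand, and Il18 (ENSMUSG00000039217) lies at chr9:50554827-50581840. Il18bp (ENSMUSG00000070427) lies at chr7:102014885-102018690, Nlrp3 (ENSMUSG00000032691) at chr11:59541568-59566956 and Gsdmd (ENSMUSG00000022575) at chr15:75862327-75867408. Exons of 3 members overlap a gene on the opposite strand, namely Il1a with Gm14023 over 222 bases, Il1b with Il1bos over 25 bases and Il18bp with Numa1 over 80 bases. The sources used here do not say whether reads were counted by strand, so reads in these stretches cannot be told apart. Gm14023 held 183 to 233 counts and Il1bos 518 to 797 counts in the LPS libraries, in which Il1a held at least 17568 counts and Il1b at least 103457. In the vehicle libraries of experiment 1 Gm14023 held 4 counts each, in which Il1a held at least 2. In those of experiment 2 Gm14023 held 4 to 7 counts and Il1a at least 1. The strand limit therefore bears on the vehicle level of Il1a. Numa1 held 1347 to 1781 counts in the LPS libraries, in which Il18bp held at least 146, and Numa1 was higher in the vehicle libraries, at 4717 to 6283 counts.

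The promoters of 4 members are shown: Il1a and Il1b for the size of their induction by LPS, Il1rn for its fall with the BRD9 compounds, and Casp4 for its NF-κB matches. The windows run from 250 bases before to 50 bases after a RefSeq start site (GRCm38.p6, the assembly named mm10), 5′ to 3′ on the strand of the gene. Il1b is at chr2:129371090-129371389 on the minus strand, Il1a at chr2:129309923-129310222 on the minus strand, Il1rn (one of its 3 RefSeq starts) at chr2:24336610-24336909 on the plus strand and Casp4 at chr9:5308599-5308898 on the plus strand. Capitals mark matches to TATAAA, to the AP-1 motif TGANTCA or to the NF-κB motif.
Il1b: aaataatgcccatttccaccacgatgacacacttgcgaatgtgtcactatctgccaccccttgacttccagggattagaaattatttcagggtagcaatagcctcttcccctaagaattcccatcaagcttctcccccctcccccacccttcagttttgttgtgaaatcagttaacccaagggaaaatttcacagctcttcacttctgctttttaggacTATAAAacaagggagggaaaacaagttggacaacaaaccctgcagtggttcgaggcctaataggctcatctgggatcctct
Il1a: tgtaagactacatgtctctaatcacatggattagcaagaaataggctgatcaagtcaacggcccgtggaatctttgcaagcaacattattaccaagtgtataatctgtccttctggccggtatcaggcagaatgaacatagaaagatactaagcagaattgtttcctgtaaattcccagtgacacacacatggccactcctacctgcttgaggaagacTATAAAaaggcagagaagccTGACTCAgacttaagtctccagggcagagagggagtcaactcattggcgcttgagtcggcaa
Il1rn: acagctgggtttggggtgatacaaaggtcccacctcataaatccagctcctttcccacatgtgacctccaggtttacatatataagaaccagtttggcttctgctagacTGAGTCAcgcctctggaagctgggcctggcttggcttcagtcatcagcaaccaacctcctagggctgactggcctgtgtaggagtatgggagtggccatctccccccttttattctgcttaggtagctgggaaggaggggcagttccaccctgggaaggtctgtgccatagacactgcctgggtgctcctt
Casp4: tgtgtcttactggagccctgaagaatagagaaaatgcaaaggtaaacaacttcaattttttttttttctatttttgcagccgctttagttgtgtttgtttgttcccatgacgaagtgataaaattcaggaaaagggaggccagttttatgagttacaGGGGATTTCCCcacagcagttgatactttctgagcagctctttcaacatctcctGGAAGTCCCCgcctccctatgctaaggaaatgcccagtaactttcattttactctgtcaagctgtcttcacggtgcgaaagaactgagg
The Il1b and Il1a windows each held TATAAA on the gene's strand, starting at base -31 and base -32 from the start site, and the Il1a window also held an AP-1 match at -12. The Il1rn window held an AP-1 match at -141, and the windows of its other RefSeq starts held none. The Casp4 window held NF-κB matches at -93 and -92, which overlap each other, and at -39. One window of Nlrp3, which starts at base 59541319 of chromosome 11, held an NF-κB match at -186. Searched on both strands, NF-κB matches were present in 8.46% of all 32851 RefSeq promoters of this length, TGANTCA in 7.81% and TATAAA in 13.6%. ACANNNTGT, letters of the glucocorticoid receptor motif, occurred in 6.85% of all promoters and in none of the 13 windows of the 9 members with an entry. These matches describe the letters in the windows and were not measured as binding. Gsdmd has no entry in the promoter table used.

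Libraries held 19253941 to 29912533 counts in experiment 1 and 14472828 to 17930566 in experiment 2. In experiment 1 the first Dex + LPS and the first Dex + dBRD9 + LPS library stood apart, since genes with long exons were lower there than in their group (Spearman's rho of the deviation with exon length −0.683 and −0.520 over 7426 genes), and results that rest on them are given with and without them where they differ. In experiment 2, with 2 libraries a group, the vehicle libraries (rho −0.634 and 0.634) and the Dex + IFNγ + LPS libraries (0.577 and −0.577) also differed by exon length. The libraries carried macrophage transcripts, with all 8 genes of a macrophage marker list present and a summed level of 11267 to 23365 CPM (counts scaled to a common library total) in experiment 1. A list of 11 neutrophil genes moved with the compounds: it summed to 25.2 to 34.5 CPM with LPS, 79.6 to 83.5 with Dex + LPS, 1.28 to 2.68 with iBRD9 + LPS, 22.8 to 24.3 with dBRD9 + LPS, 28.4 to 29.6 with Dex + iBRD9 + LPS and 46.0 to 51.5 with Dex + dBRD9 + LPS. Mmp8 or S100a9 was its highest gene in each group, while Mpo had no counts in all 6 stimulated groups and Ly6g had none in 5 of the 7 groups. In experiment 2 the same list summed to 40.9 to 41.9 with IFNγ + LPS and to 16.5 to 21.6 with Dex added. It summed to 22.9 to 23.6 with dBRD9 added and to 21.1 to 22.8 with both. A list of 5 stromal cell genes summed to 32.6 to 66.4 CPM over the libraries of experiment 2, against 0 to 0.385 in experiment 1. The part of these transcripts in the results below was not tested.

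LPS raised all 9 members that could be tested in experiment 1. The largest rises were those of the ligands: Il1a and Il1b were close to absent in vehicle cells, and in LPS-treated cells Il1b was the most abundant member. Levels are CPM of library totals scaled by trimmed-mean (TMM) factors. A gene is called changed when its p-value in edgeR's quasi-likelihood test, adjusted by the Benjamini-Hochberg method over the 12662 genes tested in experiment 1 or the 13313 tested in experiment 2, is below 0.05. By this rule 36.1% of all tested genes were called higher with LPS than with vehicle and 39.3% lower. The 9 members had a median log2 fold change of 3.00, against −0.05 over all genes tested. In these bulk cultures, fewer cells of a type and less RNA per cell cannot be told apart.

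**Figure D1:**
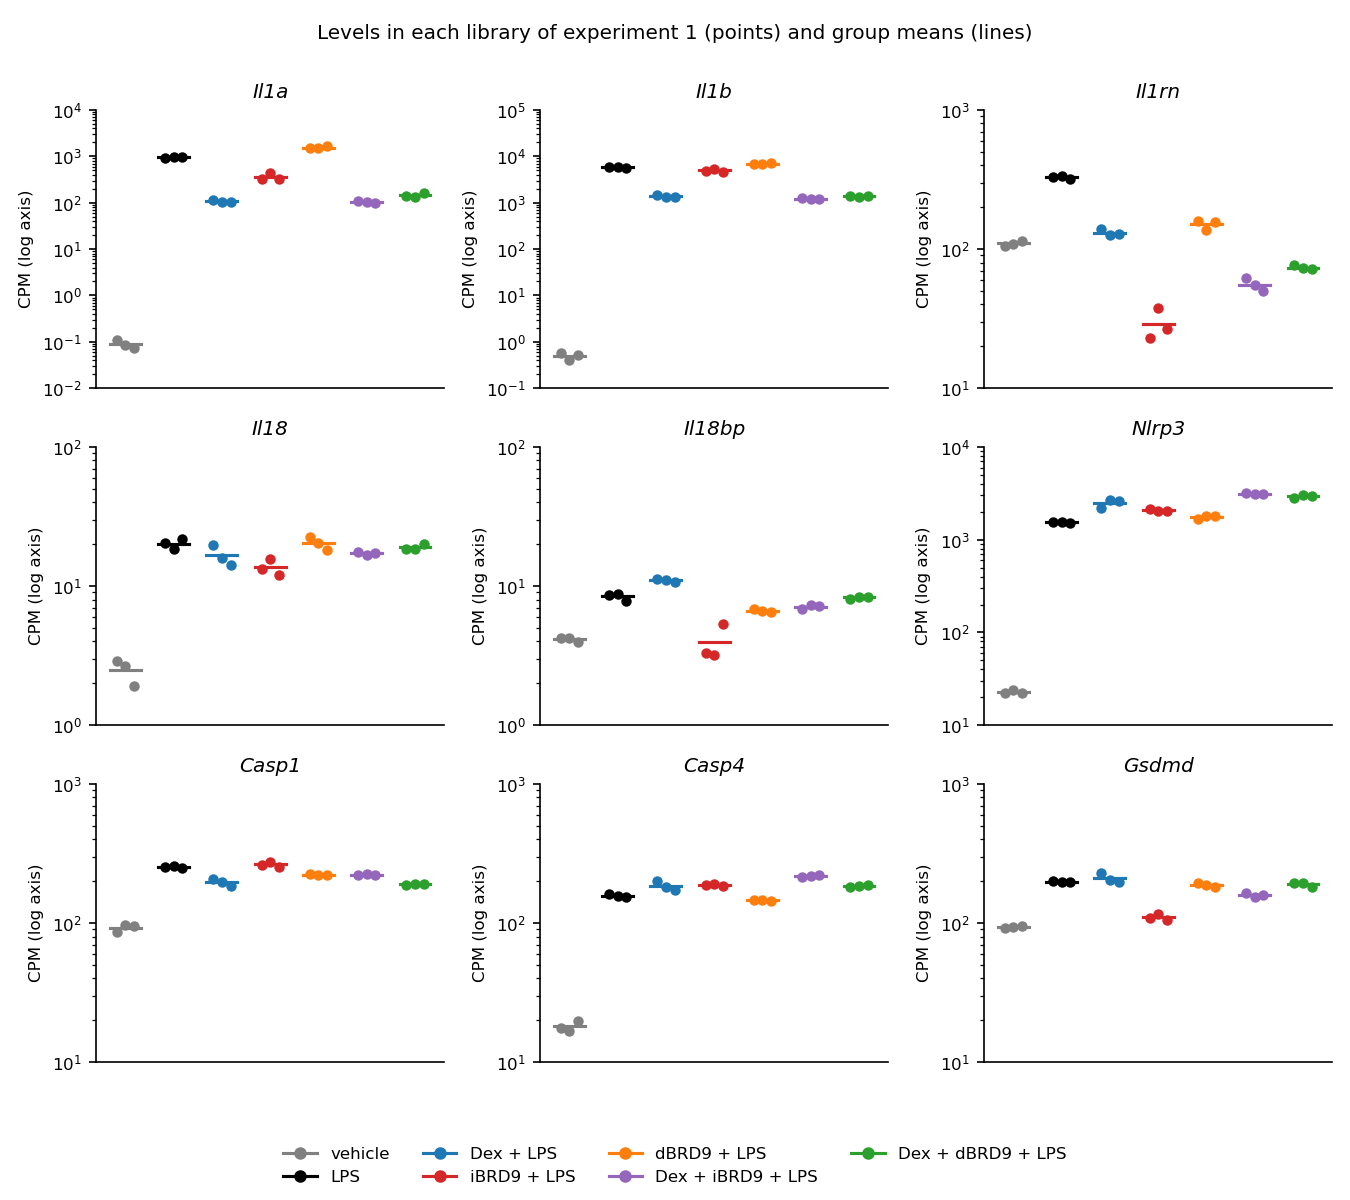
Level of 9 members in each of the 21 libraries of experiment 1, in CPM on a log axis that differs between panels. Points are libraries and lines are group means; Il1a and Il1b rise from below 1 CPM in vehicle to at least 941 CPM with LPS, and Il1rn is lowest among the stimulated groups with iBRD9 + LPS.

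Il1a, the interleukin 1 alpha ligand, was at 0.109, 0.0873 and 0.0748 CPM in the vehicle libraries and at 941, 965 and 947 CPM in the LPS libraries. Pooled over the libraries, 8 counts in vehicle stood against 63869 with LPS, a ratio of library-scaled counts of 10544 (exact 95% interval 5351 to 24424, counting error only). Il1b was at 0.583, 0.407 and 0.523 CPM with vehicle and 5994, 5980 and 5578 CPM with LPS, which is a pooled ratio of 11825 (8808 to 16274) from 44 and 393943 counts. Neither ligand's groups overlapped, and their vehicle level rests on a few counts in each library. That of Il1a also carries the strand limit given above. Per kilobase of exon, the mean LPS level was 3068 CPM for Il1b, 482 for Il1a, 382 for Nlrp3 and 59.5 for Il1rn. On that length-corrected scale the Il1b transcript was thus well above its antagonist's, and the order was the opposite in vehicle, where Il1rn averaged 19.8 CPM per kilobase and Il1b 0.265.

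Dexamethasone lowered both ligands and the antagonist and raised Nlrp3. Of the 9 members tested, 4 were lower in Dex + LPS than in LPS and 3 were higher, where 27.5% and 27.9% of all genes were called lower and higher. Il1a, at 115, 106 and 104 CPM with Dex + LPS, fell 8.77-fold (log2 fold change −3.13, SE 0.09, adjusted p = 9.8e-18). Il1b, at 1471, 1335 and 1309 CPM, fell 4.27-fold (log2 fold change −2.09, SE 0.06, adjusted p = 1.2e-18). Both ligands stayed far above their vehicle level, and no Dex + LPS library reached an LPS library. The Il1a to Il1b ratio also fell, by 1.04 on the log2 scale with no overlap between libraries (exact two-sided permutation p = 0.1, the smallest that 3 against 3 libraries allow).

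The 2 BRD9 compounds moved the ligands in different ways in cells without dexamethasone. Il1a was at 324, 433 and 331 CPM with iBRD9 + LPS and at 1480, 1480 and 1642 CPM with dBRD9 + LPS, below and above the LPS libraries. Relative to LPS, Il1a fell by 1.39 on the log2 scale with iBRD9 (2.62-fold, SE 0.09, adjusted p = 4.5e-12) and rose by 0.69 with dBRD9 (1.61-fold, SE 0.09, adjusted p = 3.3e-06). Il1b moved much less, at 4807, 5356 and 4708 CPM with iBRD9 + LPS and 6771, 6912 and 7284 CPM with dBRD9 + LPS. Its log2 fold change was −0.24 (SE 0.05, adjusted p = 0.00052) with iBRD9 and 0.26 (SE 0.05, adjusted p = 0.0013) with dBRD9. The iBRD9 call for Il1b was lost when scaling used library totals alone (log2 fold change −0.11, adjusted p = 0.077), a scaling that moved the median of all genes from 0.01 to 0.14 in this comparison. The same scaling shifted LPS against vehicle, from a median of −0.05 to −0.56, with all 9 members still called higher.

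In cells given dexamethasone Il1a showed no detectable response to iBRD9, and Il1b a small fall like that without dexamethasone. Il1a was at 110, 106 and 96.6 CPM with Dex + iBRD9 + LPS and 138, 133 and 163 CPM with Dex + dBRD9 + LPS. Against Dex + LPS the log2 difference of Il1a was −0.06 (95% interval −0.24 to 0.13, adjusted p = 0.67) with iBRD9, whose libraries overlapped those of Dex + LPS, and 0.41 (SE 0.09, adjusted p = 0.0023) with dBRD9. Il1b, at 1244, 1196 and 1177 CPM with Dex + iBRD9 + LPS, was 0.19 lower (SE 0.05, adjusted p = 0.0095; 0.104 with library totals alone and 0.072 when only the compared groups were fitted). With Dex + dBRD9 + LPS it was at 1369, 1352 and 1407 CPM, a log2 difference of 0.00 (95% interval −0.11 to 0.12, adjusted p = 0.97) from Dex + LPS.

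Il1rn, the receptor antagonist, showed the largest response of any member to the BRD9 compounds and was lower with both. It was at 105, 109 and 115 CPM with vehicle and rose 3.00-fold with LPS, to 331, 335 and 322 CPM. With iBRD9 + LPS it was at 22.8, 37.8 and 26.5 CPM, below every vehicle library. With dBRD9 + LPS it was at 159, 136 and 158 CPM, between the vehicle and the LPS libraries. Relative to LPS, Il1rn fell 11.4-fold with iBRD9 (log2 fold change −3.51, SE 0.12, adjusted p = 1.2e-16) and 2.18-fold with dBRD9 (log2 fold change −1.13, SE 0.11, adjusted p = 7.7e-08). The neutrophil list was lower with iBRD9 + LPS too, as given above, and its part in this fall was not tested.

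Dexamethasone by itself lowered Il1rn 2.51-fold, to 139, 127 and 127 CPM (log2 fold change −1.33, SE 0.11, adjusted p = 4.8e-10). The Dex + LPS and dBRD9 + LPS libraries overlapped in Il1rn level. Adding a BRD9 compound to dexamethasone lowered Il1rn again: it was at 61.8, 55.1 and 49.8 CPM with Dex + iBRD9 + LPS and 76.2, 72.6 and 71.5 CPM with Dex + dBRD9 + LPS. These levels were 2.36-fold (log2 fold change −1.24, SE 0.11, adjusted p = 1.8e-08) and 1.79-fold (log2 fold change −0.84, SE 0.11, adjusted p = 9.7e-06) below Dex + LPS. All 6 libraries with dexamethasone and a BRD9 compound lay above the 3 iBRD9 + LPS libraries. The combination with iBRD9 therefore had more Il1rn transcript than iBRD9 without dexamethasone, although each agent by itself lowered it.

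The ratio of Il1b to Il1rn transcript, from CPM per kilobase of exon, sets the ligand against its antagonist within each library. It was 52.6, 51.8 and 50.3 with LPS and 30.8, 30.5 and 29.8 with Dex + LPS. It reached 613, 411 and 515 with iBRD9 + LPS and 124, 147 and 134 with dBRD9 + LPS. With dexamethasone and iBRD9 it was 58.4, 63.0 and 68.6, and with dexamethasone and dBRD9 it was 52.1, 54.1 and 57.1. On the log2 scale the means were 5.69 ± 0.03 (SD, n = 3) with LPS, 4.92 ± 0.02 with Dex + LPS, 8.98 ± 0.29 with iBRD9 + LPS and 7.07 ± 0.13 with dBRD9 + LPS. Each of these groups lay wholly apart from the LPS group (exact two-sided permutation p = 0.1 each, the smallest possible). The rise with iBRD9 came with a low Il1rn rather than a high Il1b, as both transcripts were lower than with LPS.

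**Figure D2:**
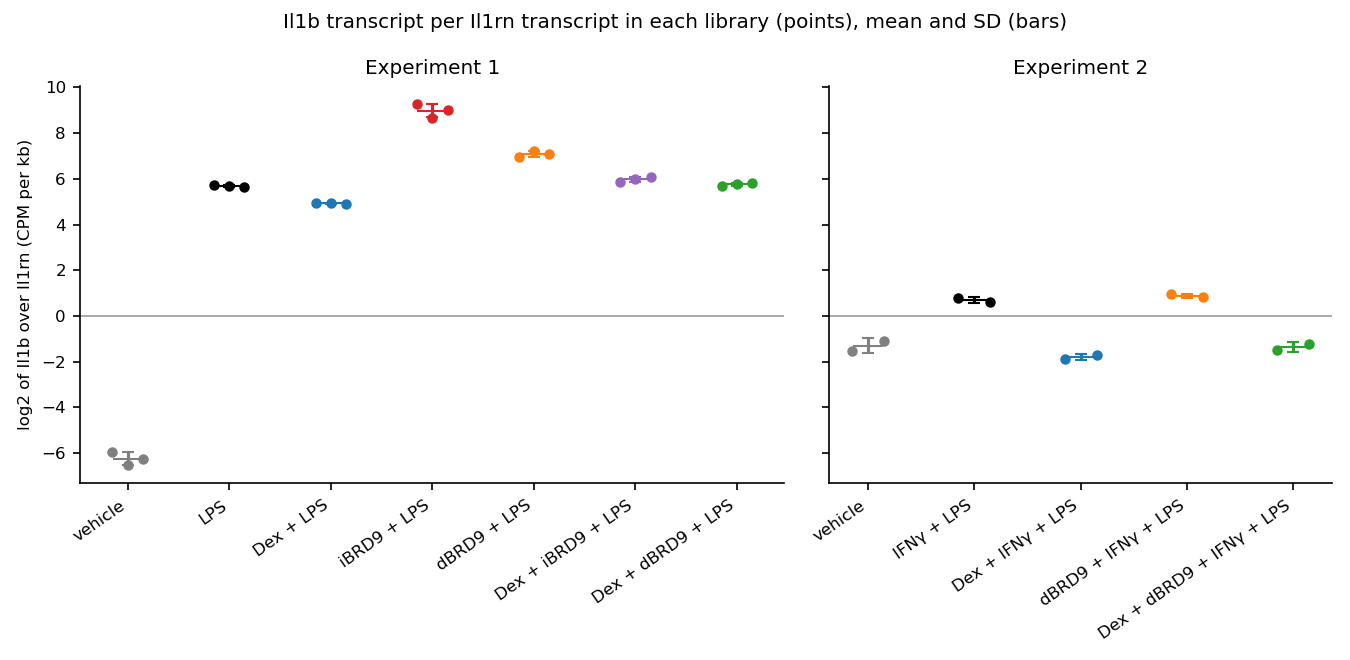
Ratio of Il1b to Il1rn transcript (CPM per kilobase of exon, log2 scale) in each library of both experiments. Points are libraries and bars are the mean and SD of each group; iBRD9 + LPS stands highest in experiment 1, with a mean of 8.98, and the vehicle group lowest, with a mean of −6.24.

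Il1r2, the decoy receptor, was near absent and was not tested in experiment 1, where it held 10 counts over the 3 vehicle libraries, 1 over the LPS libraries and 2 to 7 over each other group. In experiment 2 it passed the filter on low counts, at 0.817 and 0.683 CPM with Dex + IFNγ + LPS and 0.0607 and 0.369 CPM with IFNγ + LPS. Only libraries with Dex held 10 or more counts of it, so it passed the filter through the groups where it was high. Its comparison with Dex is thus not independent of the filter, and the lack of overlap between these libraries carries no weight. The log2 difference of 1.85 (SE 0.91) had an adjusted p of 0.18, so that no change was detectable at this depth.

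Il18, the interleukin 18 precursor, rose with LPS (log2 fold change 3.00, SE 0.15), from 2.91, 2.68 and 1.91 CPM to 20.3, 18.5 and 21.8 CPM. With iBRD9 + LPS it was at 13.4, 15.5 and 12.0 CPM, lower than in every LPS library (log2 fold change −0.56, SE 0.12, adjusted p = 0.00027). With dBRD9 + LPS it was at 22.6, 20.3 and 18.2 CPM, and the difference from LPS was 0.02 (95% interval −0.23 to 0.26, adjusted p = 0.96). Dex + LPS libraries were at 19.9, 16.0 and 14.1 CPM, of which the first was among the LPS values. The dexamethasone difference of −0.27 (SE 0.12) missed the threshold with an adjusted p of 0.057. It passed in 7 of 13 alternatives: with no filter (adjusted p = 0.018), DESeq2 (0.0499), limma voom (0.046) or the replicate block (0.042), without the second LPS library (0.035), and without the first Dex + LPS library, which stands apart by exon length (log2 fold change −0.42, adjusted p = 0.0015), or both libraries that stand apart (0.00097). With a BRD9 compound added to dexamethasone, Il18 was at 16.8 to 17.5 CPM (iBRD9) and 18.5 to 20.1 CPM (dBRD9), and neither difference from Dex + LPS was called (adjusted p = 0.82 and 0.32; the second was called without the first Dex + LPS library, at a log2 fold change of 0.34 and an adjusted p of 0.025).

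Il18bp, which encodes the secreted inhibitor of interleukin 18, was low, at 4.22, 4.22 and 3.96 CPM with vehicle and 8.59, 8.78 and 7.87 CPM with LPS. With iBRD9 + LPS it was at 3.29, 3.19 and 5.35 CPM, on both sides of the vehicle libraries and below every LPS library (log2 fold change −1.11 against LPS, SE 0.13, adjusted p = 1.2e-07). Dexamethasone raised it instead, to 11.3, 11.1 and 10.7 CPM (log2 fold change 0.39, SE 0.12, adjusted p = 0.0074). With dBRD9 + LPS it was at 6.80, 6.57 and 6.52 CPM, below every LPS library, and the log2 difference of −0.35 had an adjusted p of 0.058 (0.041 with DESeq2 and 0.039 with limma voom). Both compounds lowered it in the presence of dexamethasone, by 0.63 (iBRD9, adjusted p = 0.00028) and 0.41 (dBRD9, adjusted p = 0.017) on the log2 scale, to 6.86, 7.36 and 7.17 CPM and to 8.13, 8.37 and 8.41 CPM. The dBRD9 call was lost without the first Dex + dBRD9 + LPS library (adjusted p = 0.053) and without both libraries that stand apart (adjusted p = 0.060). Il18bp shares exon bases with the more abundant Numa1, so its values carry the strand limit given above.

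Nlrp3, the inflammasome sensor, rose with LPS and was higher still with dexamethasone or iBRD9. It was at 22.4, 24.0 and 22.4 CPM with vehicle and 1566, 1561 and 1526 CPM with LPS (67.5-fold, log2 fold change 6.08, SE 0.07). With Dex + LPS it was at 2188, 2706 and 2647 CPM (log2 fold change 0.70, SE 0.06, adjusted p = 5.9e-10) and with iBRD9 + LPS at 2148, 2061 and 2056 CPM (log2 fold change 0.43, SE 0.06, adjusted p = 1.0e-06). The highest Nlrp3 levels of the experiment were in the combination with iBRD9, at 3160, 3109 and 3080 CPM, followed by that with dBRD9, at 2834, 3069 and 2978 CPM. Both combinations were above Dex + LPS, by 0.31 (adjusted p = 0.00021) and 0.24 (adjusted p = 0.0062; 0.21 when only the compared groups were fitted). With dBRD9 + LPS the libraries were at 1691, 1794 and 1786 CPM, and the small rise over LPS (log2 fold change 0.18, adjusted p = 0.034) was lost without any 1 of the LPS libraries and without the second or the third dBRD9 + LPS library (adjusted p 0.067 to 0.108). Thus the sensor and the ligand transcripts moved in opposite directions with dexamethasone.

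Casp1 and Casp4 spanned 0.48 and 0.58 on the log2 scale over the stimulated group means, near the 0.58 of Il18 and below the other members tested. Casp4, the sensor of intracellular LPS, rose 8.74-fold with LPS, from 17.5, 16.8 and 19.9 CPM to 163, 155 and 155 CPM, and was 0.23 (adjusted p = 0.00094) higher on the log2 scale with Dex + LPS and 0.26 (adjusted p = 0.0003) higher with iBRD9 + LPS. Its highest level was in Dex + iBRD9 + LPS, at 214, 218 and 223 CPM, above every Dex + LPS library (log2 fold change 0.24, adjusted p = 0.0017; 0.056 when only the compared groups were fitted). With Dex + dBRD9 + LPS, at 182, 186 and 188 CPM, it lay within the Dex + LPS range (95% interval of the log2 difference −0.11 to 0.11). With dBRD9 + LPS it was at 147, 146 and 144 CPM, below every LPS library, but this difference was not called (log2 fold change −0.11, adjusted p = 0.18). It passed in 2 of 13 alternatives (adjusted p down to 0.029).

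Casp1, the protease of the inflammasome, rose 2.74-fold with LPS, from 85.9, 96.4 and 94.9 CPM to 254, 257 and 250 CPM. Dexamethasone lowered it to 207, 197 and 185 CPM (log2 fold change −0.37, SE 0.05, adjusted p = 1.2e-06). With iBRD9 + LPS it was at 261, 276 and 254 CPM and its log2 difference of 0.06 was not called (adjusted p = 0.31; 0.19 and 0.0024 with library totals alone). With dBRD9 + LPS it was at 227, 223 and 220 CPM, a call (log2 fold change −0.18, adjusted p = 0.011) that was lost with library totals alone (adjusted p = 0.084) and without the second LPS or the third dBRD9 + LPS library (adjusted p = 0.053 each). With dexamethasone, Casp1 was higher when iBRD9 was added, at 221, 226 and 222 CPM (log2 fold change 0.18, adjusted p = 0.0057; 0.097 when only the compared groups were fitted). With Dex + dBRD9 + LPS it was at 188, 190 and 190 CPM, within the Dex + LPS range (log2 difference −0.05, 95% interval −0.15 to 0.05). The neighbouring genes Casp1 and Casp4 thus moved in opposite directions with dexamethasone.

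Gsdmd, the pore-forming substrate of both caspases, rose 2.12-fold with LPS, from 91.5, 94.2 and 95.9 CPM to 201, 198 and 197 CPM. It fell to 109, 116 and 105 CPM with iBRD9 + LPS (1.81-fold, log2 fold change −0.85, SE 0.05, adjusted p = 4.8e-12). With dBRD9 + LPS, at 195, 188 and 183 CPM, the log2 difference from LPS was −0.07 (95% interval −0.18 to 0.04, adjusted p = 0.41). Dexamethasone left it at 228, 203 and 197 CPM, a log2 difference of 0.08 (95% interval −0.03 to 0.19, adjusted p = 0.22; 0.16 and 0.018 with library totals alone). Added to dexamethasone, iBRD9 lowered Gsdmd by 0.40 (SE 0.05, adjusted p = 4.8e-06), to 164, 155 and 160 CPM. With Dex + dBRD9 + LPS it was at 193, 194 and 181 CPM, below every Dex + LPS library, but the log2 difference of −0.14 was not called (adjusted p = 0.070; 0.014 with DESeq2 and 0.026 without the third Dex + LPS library).

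Counted over the 9 tested members, iBRD9 + LPS against LPS gave 2 higher and 6 lower, where 31.4% and 30.5% of all genes were called, and dBRD9 + LPS against LPS gave 3 higher and 2 lower, against 6.64% and 9.97%. With library totals alone the splits were 3 higher and 5 lower for iBRD9 and 3 higher and 1 lower for dBRD9. In the presence of dexamethasone, iBRD9 gave 3 higher and 4 lower (16.7% and 18% of all genes) and dBRD9 gave 2 higher and 2 lower (6.51% and 9.28%). When only the compared groups were fitted, 4 members were called for iBRD9 with dexamethasone, in place of 7, with Il1b, Casp1 and Casp4 lost. Both compounds lowered Il1rn with and without dexamethasone, and Nlrp3 was called higher in all 4 of these comparisons, with the limits given above for its dBRD9 calls. The iBRD9 and dBRD9 comparisons share their LPS or Dex + LPS libraries.

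**Figure D3:**
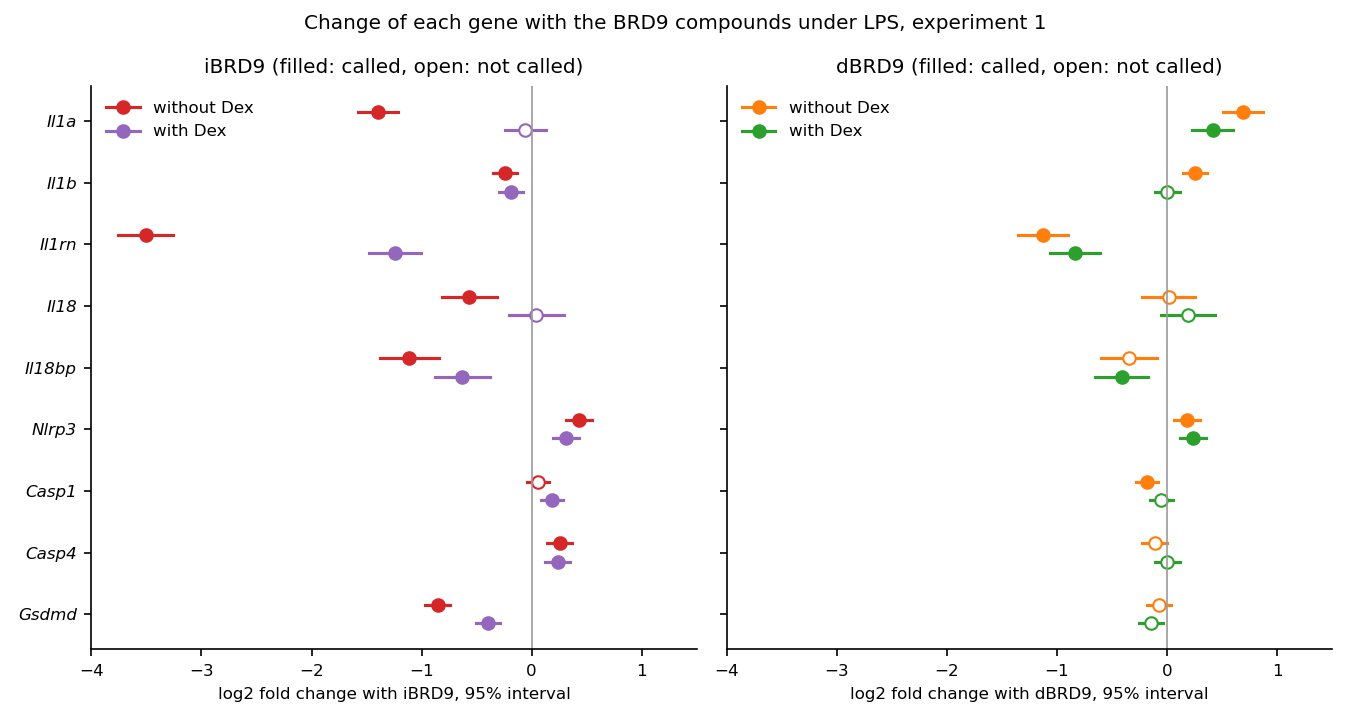
Log2 fold change of each tested member with its 95% interval for the compound comparisons of experiment 1. Filled points passed the test (adjusted p below 0.05) and open points did not; Il1rn lies furthest below 0 with iBRD9 + LPS, at −3.51, and Il1a lies on opposite sides of 0 with the 2 compounds.

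The 2 compounds were set against each other in 2 pairs of groups, with the caution that their doses differed and that the dose of iBRD9 in each library is not stated. In LPS-treated cells all 9 members were called different between iBRD9 and dBRD9, 6 lower and 3 higher with iBRD9, where 27.2% and 28.3% of all genes were called lower and higher. The differences were largest for Il1rn (log2 −2.38, SE 0.12, adjusted p = 1.1e-13) and Il1a (log2 −2.08, SE 0.09, adjusted p = 9.9e-15), and those of Nlrp3, Casp1 and Casp4 were between 0.24 and 0.37. With dexamethasone 6 members were called, 4 lower and 2 higher with iBRD9 (9.04% and 6.93% of all genes), and the differences were smaller: −0.47 for Il1a (adjusted p = 0.00071) and −0.40 for Il1rn (adjusted p = 0.017). The Il1rn call in this pair was lost without the third Dex + iBRD9 + LPS library (adjusted p = 0.11), the second (adjusted p = 0.053) or the first Dex + dBRD9 + LPS library (adjusted p = 0.058). The Il1b call, at −0.19 (adjusted p = 0.017), was lost without the second or the third Dex + iBRD9 + LPS library or the third Dex + dBRD9 + LPS library (adjusted p 0.056 to 0.075). Differences that were not called between the compounds with dexamethasone were 0.07 for Nlrp3 (95% interval −0.05 to 0.19), −0.15 for Il18 (−0.39 to 0.10) and −0.22 for Il18bp (−0.47 to 0.04).

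An interaction term tested whether the effect of each compound differed with and without dexamethasone. For iBRD9 it was called for 5 of 9 members, all in the positive direction, where 17.3% of genes were called positive and 16% negative. Positive values mean that the combination was higher than the sum of the 2 single log2 effects. The terms were 2.27 for Il1rn (SE 0.16, adjusted p = 2.4e-10), 1.34 for Il1a (SE 0.13, adjusted p = 1.9e-08), 0.61 for Il18 (adjusted p = 0.0079), 0.48 for Il18bp (adjusted p = 0.040) and 0.46 for Gsdmd (adjusted p = 5.8e-05). For all 5, iBRD9 lowered the transcript without dexamethasone by more than with it. The Il18bp term was lost in 9 of 12 fits that left out 1 library (adjusted p 0.052 to 0.15), with library totals alone (0.070), with no filter (0.055) and when only the compared groups were fitted (0.11). Without the first Dex + LPS library the terms of Nlrp3 (−0.21, adjusted p = 0.0018) and Casp1 (0.16, adjusted p = 0.037) were called as well. For dBRD9 no member was called by edgeR, where 3.39% of all genes were, with 2 members at an unadjusted p under 0.05, 1 called by DESeq2 and none by limma voom. The term nearest the threshold was that of Il1b, −0.25 (adjusted p = 0.073), which was called without the first Dex + LPS library (−0.20, adjusted p = 0.042) or the third (−0.29, adjusted p = 0.040).

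Experiment 2 used IFNγ together with LPS and included dBRD9 but not iBRD9. IFNγ + LPS raised 9 of the 10 members over vehicle, the exception being Il1r2, and 32.8% of all tested genes were called higher and 35.6% lower. Median log2 fold change was 3.64 over the members and −0.11 over all genes tested. The values of the 2 experiments came from tables scaled separately, so their levels are not tested against each other.

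**Figure D4:**
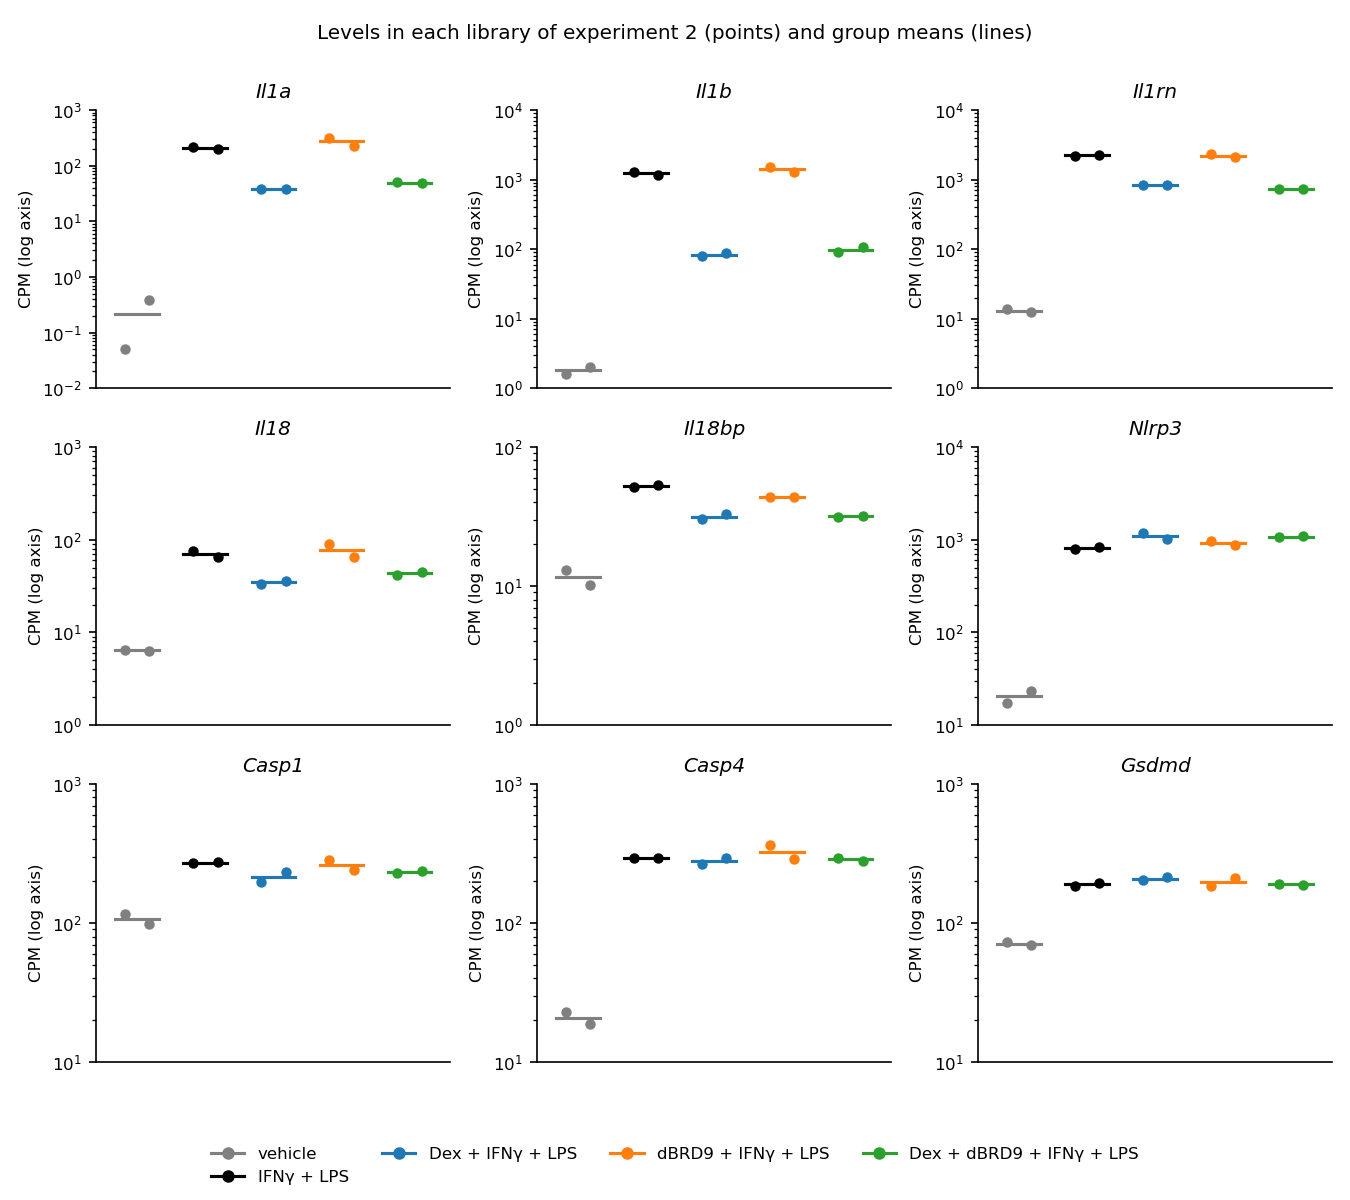
Level of 9 members in each of the 10 libraries of experiment 2, in CPM on a log axis that differs between panels. Points are libraries and lines are group means; Il1a, Il1b and Il1rn are lower in the groups with Dex than in IFNγ + LPS, and no member was called between a dBRD9 group and its control.

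In experiment 2 Il1rn rose from 13.7 and 12.4 CPM with vehicle to 2167 and 2271 CPM with IFNγ + LPS (log2 fold change 7.41, SE 0.14, adjusted p = 3.8e-16). Il1b rose from 1.61 and 2.01 CPM to 1304 and 1179 CPM, a pooled count ratio of 682 (547 to 862), and Il1a from 0.0504 and 0.385 CPM to 213 and 200 CPM, a ratio of 895 (486 to 1867). The antagonist's transcript was therefore induced along with its ligand's, and the Il1b to Il1rn ratio per kilobase averaged 0.70 ± 0.15 (SD, n = 2) on the log2 scale, against 5.69 with LPS in experiment 1. The vehicle groups differed as well, with a mean log2 ratio of −1.31 in experiment 2 and −6.24 in experiment 1. Mean vehicle Il1rn was 13.0 CPM in experiment 2 and 110 CPM in experiment 1. The stimulus and the experiment changed together, and the difference in ratio was not tested. Among the caspases and gasdermin D, Casp4 rose 14.1-fold, from 22.8 and 18.7 to 295 and 292 CPM, Gsdmd 2.68-fold and Casp1 2.54-fold. Il18 rose 11.0-fold and its binding protein 4.53-fold.

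Dexamethasone lowered the ligands in IFNγ + LPS cells as well, with 5 members lower and 1 higher where 9.21% and 10.7% of all genes were called. Il1b fell 14.9-fold, to 78.8 and 87.9 CPM (log2 fold change −3.90, SE 0.14, adjusted p = 2.6e-11), and Il1a fell 5.39-fold, to 37.8 and 38.8 CPM (log2 fold change −2.43, SE 0.17, adjusted p = 4.5e-08). Here Il1b fell more than Il1a, the reverse of experiment 1, and the log2 Il1a to Il1b ratio rose from −2.64 to −1.17 (exact two-sided permutation p = 0.333, the smallest that 2 against 2 libraries allow). Il1rn fell 2.63-fold, to 848 and 841 CPM, a size close to the 2.51-fold of experiment 1. Il18 fell 2.03-fold, to 33.4 and 36.3 CPM (adjusted p = 9.8e-05), and Il18bp fell to 30.4 and 32.8 CPM (log2 fold change −0.73, adjusted p = 0.00052), whereas it had risen with dexamethasone in experiment 1. These differences between the experiments were not tested. Nlrp3, at 1190 and 1007 CPM against 803 and 842 CPM, was again higher (log2 fold change 0.42, adjusted p = 0.030), a call lost with the replicate number as a block (adjusted p = 0.052), without either IFNγ + LPS library (adjusted p = 0.18 and 0.11) and without the first Dex + IFNγ + LPS library (adjusted p = 0.29).

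Casp1 was at 196 and 233 CPM with Dex + IFNγ + LPS, below 270 and 275 CPM without it, and missed the threshold (log2 fold change −0.35, adjusted p = 0.0545). It passed in 5 of 11 alternatives (adjusted p down to 0.0156): with no filter, DESeq2, a block on crossed replicate numbers chosen after seeing the data or only the compared groups, and without the second Dex + IFNγ + LPS library. Casp4, at 268 and 295 CPM, and Gsdmd, at 203 and 213 CPM, were not called either (adjusted p = 0.79 and 0.44).

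With IFNγ + LPS, dBRD9 changed no member by edgeR, with or without dexamethasone, where 1.83% and 1.4% of all genes were called. Without dexamethasone 1 member, and with it 2, had an unadjusted p under 0.05, and DESeq2 and limma voom called none. Il1rn was at 2297 and 2079 CPM with dBRD9 + IFNγ + LPS, on both sides of its controls (log2 difference −0.02, 95% interval −0.24 to 0.20). With dexamethasone Il1rn was at 739 and 723 CPM with dBRD9, below both controls (log2 difference −0.21, 95% interval −0.43 to 0.01, adjusted p = 0.37). Neither interval reaches the falls of 1.13 and 0.84 that dBRD9 gave in experiment 1. Those falls carry 95% intervals of their own (−1.35 to −0.90 and −1.07 to −0.61). The stimulus differed as well, and the difference between the experiments was not tested. Il1a was at 320 and 224 CPM with dBRD9 + IFNγ + LPS, above both controls, with a log2 difference of 0.39 (95% interval 0.06 to 0.73) and an adjusted p of 0.31. No interaction of dexamethasone and dBRD9 was called for a member in experiment 2 by edgeR, DESeq2 or limma voom, with none at an unadjusted p under 0.05 and 0.00751% of all genes called.

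Other genes of the same pathways were taken from a list of 39, chosen with earlier results of these data known. Counts over it are therefore descriptive. The list held further ligands, receptors, the adaptor MyD88 and its kinases, other inflammasome sensors, and regulators. Of these, 30 were tested in experiment 1, and iBRD9 + LPS gave 4 higher and 21 lower than LPS, with a median log2 fold change of −0.62 (0.01 over all genes). Over all genes 31.4% were called higher and 30.5% lower in that comparison. With dBRD9 + LPS 2 were higher and 10 lower (6.64% and 9.97% of all genes). LPS against vehicle gave 12 higher and 15 lower (36.1% and 39.3% of all genes), and Dex + LPS against LPS gave 10 higher and 6 lower (27.9% and 27.5%). All 8 tested sensors of the list were lower with iBRD9 + LPS than with LPS, and 4 of them with dBRD9 + LPS. Nlrp3 was called higher in both comparisons, but its dBRD9 call was lost in 5 of 13 alternatives. Against Dex + LPS, 2 of the 8 sensors were lower with iBRD9 and 1 with dBRD9 (18% and 9.28% of all genes).

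**Figure D5:**
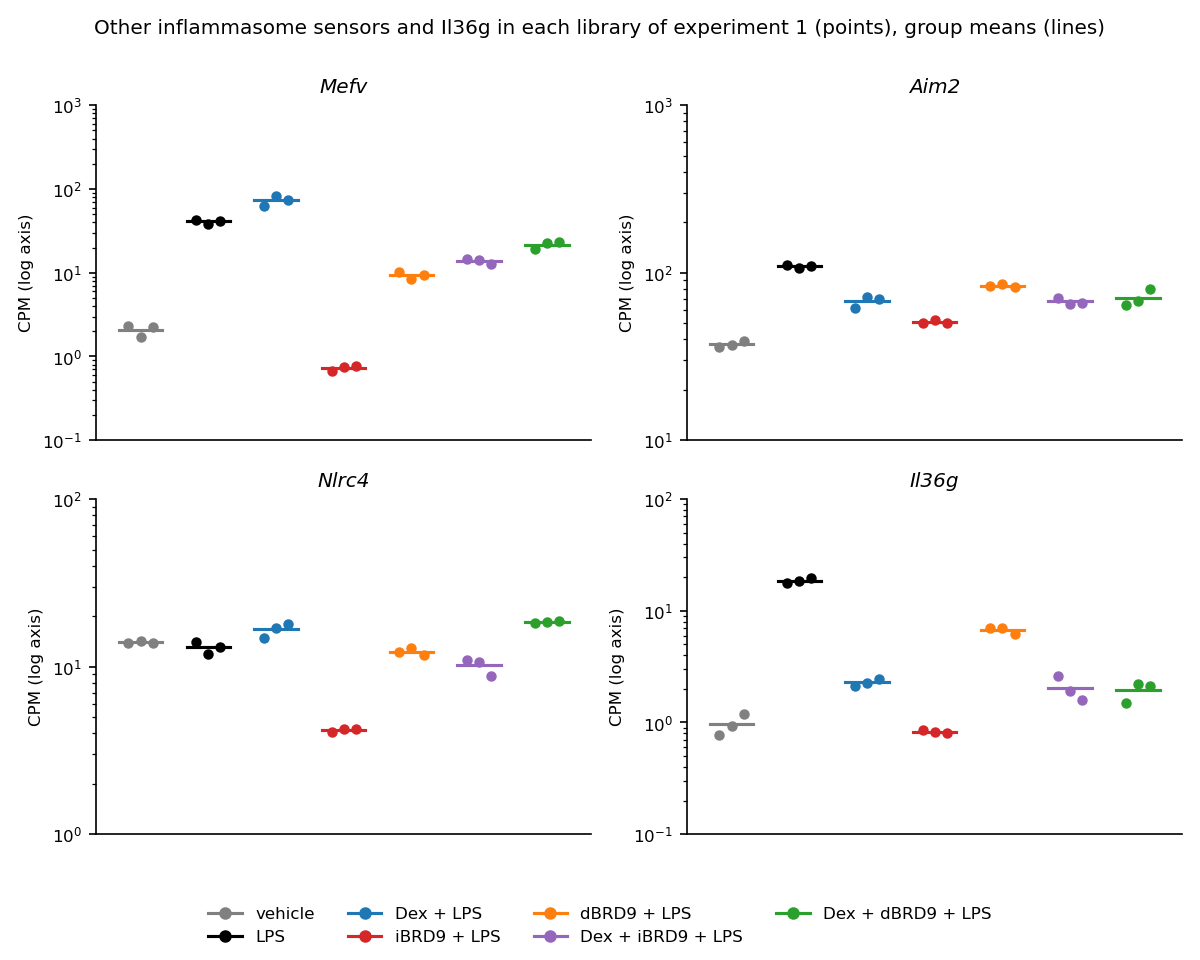
Level of 3 inflammasome sensors (Mefv, Aim2 and Nlrc4) and of the ligand Il36g in each library of experiment 1, in CPM on a log axis that differs between panels. Points are libraries and lines are group means; all 4 genes are lower with iBRD9 + LPS than with LPS, and Mefv falls below its vehicle level.

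Mefv, which encodes the sensor pyrin, was at 43.2, 38.7 and 41.4 CPM with LPS, 0.678, 0.746 and 0.770 CPM with iBRD9 + LPS and 10.2, 8.35 and 9.42 CPM with dBRD9 + LPS. It fell by 5.81 on the log2 scale with iBRD9 (SE 0.16, adjusted p = 2.0e-18) and by 2.14 with dBRD9 (SE 0.11, adjusted p = 8.9e-12), a larger fall than that of Il1rn in both comparisons. Its level with iBRD9 was below that of the vehicle libraries, at 2.29, 1.72 and 2.28 CPM. Dexamethasone raised Mefv, to 62.6, 83.0 and 73.9 CPM, and in its presence Mefv was at 12.8 to 14.6 CPM with iBRD9 and 19.0 to 23.4 CPM with dBRD9. Mefv was also the one gene of the list called with dBRD9 in experiment 2, with a log2 fold change of −0.58 (adjusted p = 0.033) in IFNγ + LPS cells, lost with the replicate block and in every fit that left out 1 library, and −0.76 (adjusted p = 0.0074) with dexamethasone.

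Il36g, an interleukin 1 family ligand of a separate receptor, was lower with all 3 agents: it was at 17.7, 18.5 and 19.5 CPM with LPS, and fell by 4.47 (iBRD9), 1.45 (dBRD9) and 3.02 (Dex) on the log2 scale. The cytosolic DNA sensor Aim2 fell by 1.11 with iBRD9, 0.38 with dBRD9 and 0.69 with dexamethasone in experiment 1. In experiment 2 Aim2 rose by 0.54 with dexamethasone (adjusted p = 0.0044), and the difference between the experiments was not tested. Nlrc4, whose inflammasome responds to bacterial proteins through NAIPs, fell by 1.64 with iBRD9 and was at 4.07, 4.23 and 4.23 CPM. Pycard, the adaptor that joins NLRP3 to caspase 1, was lower with both compounds in cells without dexamethasone (log2 fold change −0.62 with iBRD9 and −0.32 with dBRD9) and with it (−0.43 and −0.49). Irak3, which encodes an inhibitor of interleukin 1 receptor signalling, rose by 1.12 with dexamethasone in experiment 1 and by 1.54 in experiment 2. The interaction of dexamethasone and iBRD9 was called for 19 list genes, 16 positive and 3 negative (17.3% and 16% of all genes), and was largest among the named genes for Il36g at 4.30 and Mefv at 3.41. Il36g was low in the treated groups behind its term. Its means were 0.830 CPM with iBRD9 + LPS, 2.28 with Dex + LPS and 2.03 with both, against 0.964 with vehicle.

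The members whose group means spanned at least 1 log2 unit over the 6 stimulated groups of experiment 1 were set beside the genes with the most similar profile, by the root mean square log2 distance of centred group means over 7868 genes. Olr1, Olfm1 and Ccnd2 were nearest to Il1a, at 0.25, 0.26 and 0.29 where the median gene was at 1.55. Slc7a2, Fcgr1 and Kcnn4 were nearest to Il1rn, at 0.14, 0.24 and 0.25 (median 1.15), and Frmd6, Rps6ka2 and Cd72 to Il1b, at 0.15, 0.16 and 0.16 (median 1.12). Wbp1l, Pnpla2 and Rxrb were nearest to Nlrp3, at 0.04, 0.06 and 0.07 (median 0.41). Foxp4, Cd93 and Trim13 were nearest to Il18bp, at 0.05, 0.05 and 0.08 (median 0.51). Over the 4 stimulated groups of experiment 2 the genes named for Il1b were no longer near it. They were at 1.55 to 2.22, where the median gene was at 1.96. Those named for Il1rn were at 0.73 to 0.95 (median 0.78). Foxp4, Cd93 and Trim13 were at 0.54, 0.64 and 0.29 from Il18bp (median 0.35). The genes named for Il1a were at 0.44 to 0.84 (median 1.26). Wbp1l was at 0.09 from Nlrp3, while Pnpla2 and Rxrb were at 0.24 and 0.23 (median 0.21). These distances describe 6 and 4 group means that share their libraries and carry no test.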

How the data were processed

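RNA-seq read counts per gene were deposited by the authors as one table for each experiment; per the submitters' processing notes, fastp, STAR and DESeq2 were used with the mm10 build, while the sources used here name no counting program, annotation or strand setting. Counts were analysed in edgeR 4.0.16 (R 4.3.3), each experiment alone, with all its groups in 1 quasi-likelihood fit, TMM factors and the default filter by group (minimum count 10, minimum total 15). The standard error is the absolute log2 fold change divided by the square root of the F statistic. CPM were divided by union exon length (GENCODE M21) for comparisons between genes. Alternatives used library totals alone, no filter, DESeq2 1.42.0, limma voom 3.58.1, the replicate number as a block, the compared groups alone, and leaving out libraries. Libraries with the same number in their titles met the rule for pairing (3 or more pairs, every pair's correlation over 0.1) in 2 comparisons. These were Dex + iBRD9 + LPS (0.105 to 0.250) and Dex + dBRD9 + LPS (0.439 to 0.747), each against Dex + LPS. Same-numbered libraries of these groups also shared the sign of rho with exon length, and pairing was not separated from this. Over experiment 1, 13 of 21 libraries correlated best with their own number. The members, the list of 39 pathway genes and the marker lists were chosen with earlier results of these data known. Pathway genes were named by a rule: in each comparison, the called genes of each class that reached 10 CPM in the higher group, ranked by size of change, to a maximum of 3; some of these are described. Most similar genes were the 3 nearest to each member whose group means spanned at least 1 log2 unit. The procedure was tested on simulated counts.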

Additional observations from a re-analysis of the deposited data

Results flagged for a closer look

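A test of the difference itself found that the effect of iBRD9 was not the same with and without dexamethasone for 5 members. The interaction term (log2, positive where the combination exceeded the sum of the single effects) was 2.27 for Il1rn, 1.34 for Il1a, 0.61 for Il18, 0.48 for Il18bp and 0.46 for Gsdmd. The Il18bp term was lost in 9 of 12 fits without 1 library and under 3 other settings. No explanation was tested.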

How the results depend on the processing

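No called result changed direction under any alternative, while some uncalled values near 0 changed sign, such as Il18 with dBRD9 + LPS (−0.06 to 0.09). Of 888 values obtained by leaving out 1 library, 853 kept their side of the threshold, 26 lost the call and 9 gained it. Of 933 values under the other settings, 895 kept their side, 13 lost the call and 25 gained it. With 1 library left out, dBRD9 + LPS against LPS gave 3 to 5 called members (5 with all libraries) and the interaction of Dex and dBRD9 gave 0 to 1 (0 with all). That interaction gave 2 called members with no filter on low counts, 1 with DESeq2 and 1 without the first Dex + LPS and first Dex + dBRD9 + LPS library. Dex + iBRD9 + LPS against Dex + LPS gave 7 called members, and 4 when only the compared groups were fitted. The causes of these shifts were not tested. With the replicate block, 8 members were called for Dex + LPS against LPS, Il18 being added (adjusted p = 0.042), and 5 for Dex + IFNγ + LPS against IFNγ + LPS, Nlrp3 being lost. The block changed no other call of the member counts. In that last comparison the numbers correlated at −0.216, and crossed pairs, chosen after seeing the data, gave 7 called members. Where 1 library was left out in experiment 2, the lone library was assumed to vary like the other groups. Scaling by library totals alone changed the split of all genes from 3979 higher and 3865 lower to 5193 and 3032 for iBRD9 + LPS, from 841 and 1262 to 1402 and 1039 for dBRD9 + LPS, and from 4567 and 4971 to 2421 and 8125 for LPS against vehicle. At 2 libraries a group, experiment 2 had a biological coefficient of variation of 10.6% on 5 residual degrees of freedom, against 6.79% on 14 in experiment 1. Depth limited Il1r2 in both experiments, and Il1a and Il1b in vehicle cells.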
